A study of Zea mays with 13 samples.

Results

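In immature maize leaves, the 150 genes described here had their highest H3K4me3 counts, per library total, at the end of a drought. Each of the 4 conditions of the experiment had 1 library for this mark. The genes were taken from 24188 gene models with at least 200 H3K4me3 counts over 4 libraries, out of 43943 features counted in all. For each gene the count plus 0.5 was divided by the library total and put on a log2 scale. The score was the value in stressed plants at the end of the stress minus the highest of the other 3 values, and the 150 highest scores were kept. The genes were thus chosen by their H3K4me3 counts, whose values are a description without a test. H3K9ac and H3K27me3 had no part in the choice.

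The plants were the inbred B73, grown in a greenhouse under normal watering to the stage of 5 to 6 leaves. For 10 days they then received either 75% of disposable water (well watered) or 25% (drought stressed), at equal salt concentration. Wrapped immature leaves, still enclosed by older ones, were taken at the end of these 10 days (T0) and after 7 further days of recovery (T7), from plants of both histories. Chromatin immunoprecipitation followed by sequencing (ChIP-seq) gave 1 library for each mark in each of the 4 groups, so no difference between a pair of groups has a replicate check, and whether leaves of several plants were pooled is not given in the sources used here. Whole chromatin was sequenced once, from control plants after the 10 days, and is the background used here for each group.

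H3K4me3 is a methylation of histone H3 found at the start of transcribed genes, where it accompanies initiation. H3K9ac is an acetylation of the same histone tail and sits at active promoters as well. H3K27me3 is written by Polycomb complexes over genes that are kept silent, often until a developmental or environmental signal, and some genes carry it together with H3K4me3 within one tissue. In plants, stress-responsive genes are known to gain H3K4me3 and H3 acetylation while they are active, and either mark can fade or persist after the stress ends.

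The gene models are known by ID only. Their IDs matched no entry of the reference table at hand, which belongs to another assembly, so no gene name, function, position or sequence is given, and the tissue could not be checked against marker genes. The H3K4me3 library of stressed T0 plants, which sets the score, was the shallowest with 2793985 counts, and the other 3 held 4059090 to 6876219. Totals were 1152884 to 1856159 for H3K9ac and 1612935 to 1969485 for H3K27me3.

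At the chosen genes H3K4me3 stood at a median of 15.3 CPM (counts per 1000000 of the library total) in well-watered T0 plants, 27.7 in stressed T0 plants, 14.3 in well-watered T7 plants and 15.0 in previously stressed T7 plants. The level of the last group lay beside both well-watered groups. Because the rule required each gene to be lower in previously stressed T7 than in stressed T0, that fall follows from the choice of genes. The median log2 ratio of previously stressed over well-watered plants at T7 was 0.02, within a range of -0.70 to 0.63. Over all eligible genes the medians were 35.3, 34.7, 35.5 and 35.8 CPM, so the chosen genes carried less H3K4me3 than most in each group, the stressed one included. They ranged from 15.4 to 112 CPM in stressed T0 plants and from 5.67 to 74.9 in well-watered T0 plants.

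**Figure D1:**
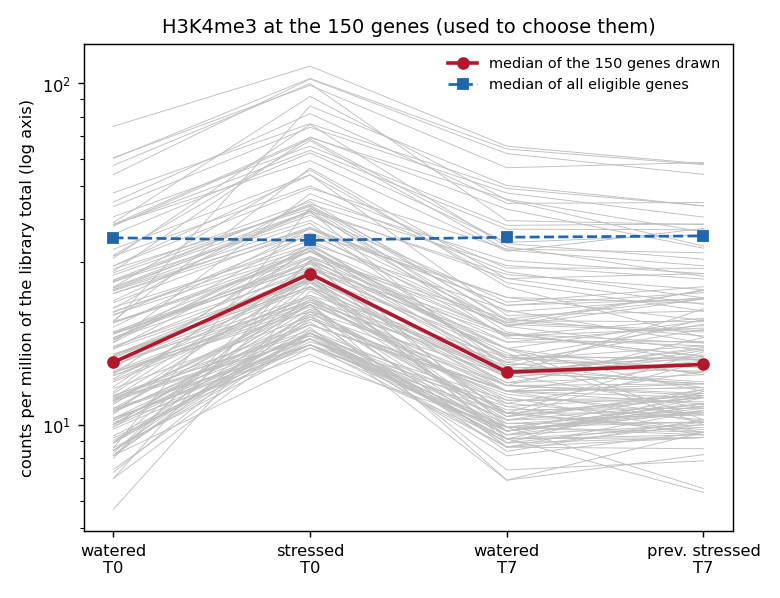
H3K4me3 of each of the 150 genes in the 4 libraries (grey lines, CPM, log axis), with their median in red and the median of all eligible genes in blue. The red line rises from 15.3 to 27.7 in stressed T0 plants and lies at 14.3 and 15.0 in both T7 libraries, while the blue line stays between 34.7 and 35.8. The peak of the red line follows from the choice of genes.

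The fold over the next highest library was at least 1.5, reached 3.30 and had a median of 1.61, and 16 genes reached at least 1 on the log2 scale. The next highest library was well-watered T0 for 60 genes, well-watered T7 for 46 and previously stressed T7 for 44. Depth limits the single genes: 98 of the 150 had under 400 H3K4me3 counts over 4 libraries, with a median of 327.5 against 702 over all eligible genes. The 95% intervals printed beside single scores are exact conditional binomial intervals of the ratio to the next highest library. They cover counting error only, lean upward because the highest scores were kept, and are no test. Stressed T0 was the highest H3K4me3 library at 26.3% of eligible genes.

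The highest scores fell on genes with few counts. Zm00001d010586 held 55 H3K4me3 counts in well-watered T0, 85 in stressed T0, 36 in well-watered T7 and 55 in previously stressed T7 plants, and its score was 1.72 (95% interval 1.22 to 2.24). Its largest raw count thus came from the shallowest library. Zm00001d037894 held 57, 77, 37 and 38 counts in the same order (score 1.59, 1.01 to 2.20). Zm00001d007411 held 56, 71, 40 and 39 (1.36, 0.79 to 1.96). In the other 3 libraries these genes stood at 6.35 to 9.85 CPM. Zm00001d013809 held 61, 73, 41 and 61 counts (1.36, 0.85 to 1.87). Zm00001d042922 held 59, 121, 76 and 92 (1.21, 0.78 to 1.64). At Zm00001d042922 both T7 libraries, at 18.7 and 15.4 CPM, lay above the 8.58 of well-watered T0, so its level after recovery was between the extremes. Zm00001d017422 was deeper, with 212, 212, 135 and 163 counts (1.19, 0.87 to 1.51). Zm00001d023664 and Zm00001d043180 tied at a score of 1.17 (0.65 to 1.68), with 69, 63 and 35 counts each in the first 3 libraries and 55 and 51 in the last. Their H3K27me3 counts differed, 32, 27, 29 and 36 against 6, 9, 6 and 15 in the order used above.

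The best measured members had smaller scores. Zm00001d008812 had the most counts, 515, 314, 266 and 348, and was the last gene kept, with a score of 0.586 (0.38 to 0.79). Zm00001d005748 held 415, 289, 261 and 346 (0.69, 0.44 to 0.93). Zm00001d029620 held 417, 276, 230 and 351 (0.71, 0.48 to 0.93). In these 3 genes stressed T0 reached 98.8 to 112 CPM against 56.7 to 74.9 in the other libraries. Zm00001d038806 held 372, 288, 253 and 324 (0.73, 0.48 to 0.98). Zm00001d005609 held 396, 279, 161 and 231 (0.79, 0.57 to 1.02). Zm00001d039270 held 329, 213, 200 and 262 (0.63, 0.34 to 0.92). Zm00001d005609 was the one of these 6 whose T7 levels, 39.7 and 38.6 CPM, lay furthest, as a ratio, under its well-watered T0 level of 57.6. At the edge of the list, Zm00001d025827 (rank 149, score 0.586, with 197, 120, 109 and 166 counts) was inside. Zm00001d020260 (0.58, with 68, 44, 26 and 63) and Zm00001d023596 (0.58, with 148, 90, 83 and 95) were just outside.

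The chosen genes differed from the eligible ones in whole chromatin and in the other marks, in part as a mirrored list did. Whole-chromatin counts over the gene, which rise with gene length among other things, had a median of 82 against 229, and 83 of 150 genes (55.3%) were among the lowest 25% of eligible genes. In the 1 kb window at the transcription start site the medians were close, 58 against 67. Gene length itself was not used here. H3K4me3 over whole chromatin put 71 of 148 genes (48.0%) among the lowest 20% of eligible genes and 16 (10.8%) among the highest 20%. This enrichment comes from the same 4 H3K4me3 libraries that the rule used, so these shares are not independent of the choice of genes. The mirrored list, described below, also had 48.0% among the lowest 20%, with 0.676% among the highest 20%.

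Marked genes are here those that, in each of the 4 libraries of a mark, exceeded by 2-fold or more the enrichment over whole chromatin found at the 25th percentile. H3K4me3 marked 146 of the 148 genes with at least 20 whole-chromatin counts in the 1 kb window, or 98.6%, against 99.1% of eligible genes. H3K9ac marked 36 of 148 (24.3%, exact binomial 95% interval 17.7 to 32.1) against 55.7% of eligible genes. H3K27me3 marked 40 of 143 (28.0%, 20.8 to 36.1) against 11.1%. The median H3K27me3 enrichment was 0.42 on the log2 scale against -0.23, and that of H3K9ac was -0.14 against 0.44. H3K27me3 enrichment divides by whole-gene counts, which were lower at the chosen genes (median 82 against 229). Before that division the median H3K27me3 level of the chosen genes was under that of eligible genes in each library, as given below. These intervals treat genes as independent and cover counting of genes only. H3K27me3 stood together with H3K4me3, without H3K9ac, at 32 of 141 genes measured for each mark (22.7% against 9.21% of eligible genes), and H3K4me3 stood alone at 73 (51.8% against 34.1%). The promoter marks in combination, without H3K27me3, were found at 28 (19.9% against 54.1%). The 150 genes with the mirrored pattern, lowest in stressed T0, had a median whole-gene count of 236 and H3K27me3 at 10.5% of 143 genes. In other shares they lay near the chosen genes: H3K9ac marked 32.4% of 148, H3K4me3 stood alone at 52.8% of 142, and 48.0% were among the lowest 20% by H3K4me3 enrichment. With no replicate library these differences between lists were not tested.

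**Figure D2:**
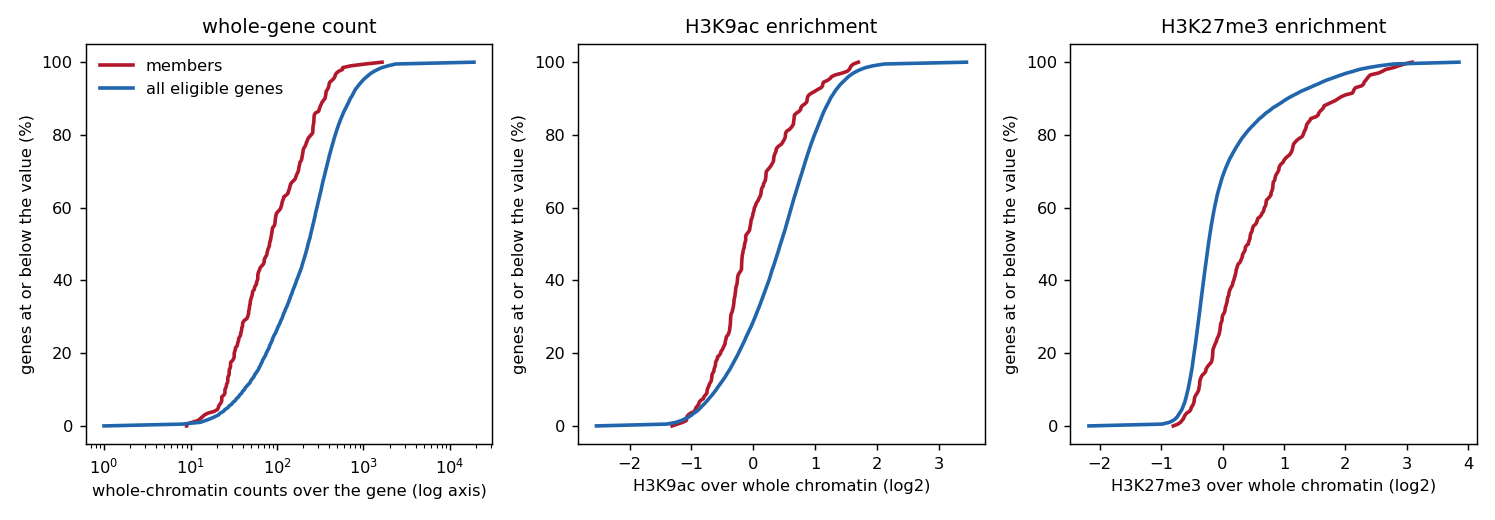
Cumulative share of genes (%) by whole-chromatin counts over the gene (left, log axis), mean H3K9ac enrichment (middle) and mean H3K27me3 enrichment (right, both log2 over whole chromatin), for the chosen genes in red and all eligible genes in blue. The red curves lie at lower whole-gene counts (median 82 against 229), lower H3K9ac enrichment (-0.14 against 0.44) and higher H3K27me3 enrichment (0.42 against -0.23). The whole-gene counts of the left panel are the divisor of the H3K27me3 enrichment.

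Coverage also marks out 2 members. Zm00001d041401 had 788 whole-chromatin counts in the 1 kb window and Zm00001d018519 had 232, where the eligible median was 67. Both were named for these counts after they were seen. At least 200 such counts were found at 1.33% of the chosen and 0.835% of eligible genes, and at least 100 at 1.33% and 2.22%. Whether reads that match several places were kept is not given in the sources used here, so the counts of such genes are uncertain. Without both genes the H3K9ac and H3K27me3 medians given below were 0.30 and -0.0043, as with them.

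H3K9ac, which had no part in the choice, was also highest in stressed T0 plants at 71 of 149 of these genes. Its ratios were taken after scaling by TMM (trimmed mean of M-values) for genes with at least 40 counts over 4 libraries, which 149 of the 150 passed. The median H3K9ac level of these was 16.6 scaled CPM in well-watered T0, 21.2 in stressed T0, 17.6 in well-watered T7 and 16.4 in previously stressed T7 plants. Over eligible genes the order was different, with medians of 33.2, 29.96, 29.5 and 30.3 and the highest in well-watered T0. The 71 genes with stressed T0 as the highest of the 4 libraries were 47.7%, beside 17.7% of eligible genes and 22.4% of all features tested. Stressed T0 was the lowest at 10 (6.71%) beside 28.4% and 22.9%, and at least 1.5-fold over each of the other 3 at 12 (8.05%) beside 0.53% and 1.54%.

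Against well-watered T0 plants the median H3K9ac log2 ratio of the chosen genes was 0.30, beside -0.14 over eligible genes and 0.01 over all 41294 features tested. The ratio lay above 0 at 112 of 149 genes (75.2%) beside 35.5% of eligible genes and 51.2% of all features tested. Against well-watered T7 plants the median was 0.22 beside 0.00 over eligible genes, and 66.4% lay above 0 beside 50% of eligible genes and 49.4% of all features. Against previously stressed T7 plants it was 0.44 beside -0.03, and 77.2% lay above 0 beside 47.3% and 49.1%. These 3 ratios share the stressed T0 library, so they are not independent and do not add up to a repeat. In ratios without that library, the median of previously stressed over well-watered T7 plants was -0.14 beside 0.02, with 40.9% above 0 beside 52.4%, and that of well-watered T7 over well-watered T0 plants was 0.06 beside -0.14. The list holds few strongly covered genes, 4% with at least 1000 H3K4me3 counts against 26.4% of eligible genes, and over such eligible genes the H3K9ac median was -0.24, with stressed T0 the highest at 11.7%. A list of 150 chosen by the same score among them had an H3K9ac median of -0.091, below 0, with stressed T0 the highest at 29.3%. With the trend of the ratio on H3K9ac enrichment removed the median of the chosen genes was 0.32 and stressed T0 was the highest at 51.7% of them. Values of eligible genes with this trend removed are not given here. The shares above were taken before its removal and are no background for these 2 values.

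**Figure D3:**
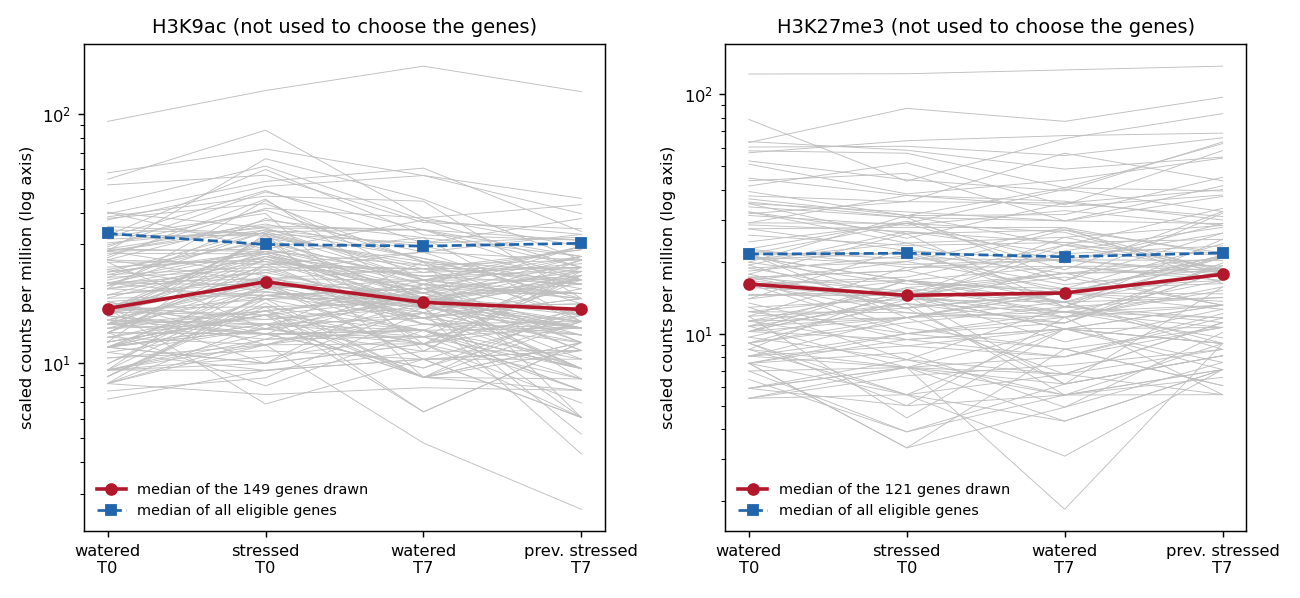
H3K9ac (left, 149 genes) and H3K27me3 (right, 121 genes) of the chosen genes in the 4 libraries, in scaled CPM on a log axis, with the median of the genes drawn in red and the median of all eligible genes in blue. The red H3K9ac line has its top at 21.2 in stressed T0 plants, whereas the red H3K27me3 line has its top at 17.7 in previously stressed T7 plants.

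Single genes were read by a rule of size: a ratio of at least 1.5-fold with an exact conditional binomial interval, at an error level of 0.1%, that left out 1. For H3K9ac in stressed over well-watered T0 plants, 7 of the 149 chosen genes were higher (4.7%), beside 0.286% of eligible genes and 0.436% of all features tested. There were 0 lower ones, beside 1.47% of eligible genes. Against well-watered T7 plants 6 were higher (4.03%) and 0 lower, beside 0.132% and 0.149% of eligible genes. Against previously stressed T7 plants 8 were higher (5.37%) and 0 lower, beside 0.228% and 0.178%. In well-watered T7 over well-watered T0 plants 2 were higher and 2 lower (1.34% each), beside 0.712% and 1.28% of eligible genes. The share of lower ones was thus near that of eligible genes. Over all features tested the shares were 0.697% and 0.763%. In previously stressed over well-watered T7 plants 0 were higher and 2 lower (1.34%), beside 0.116% and 0.12% of eligible genes.

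Zm00001d025055 and Zm00001d005609 met the rule against each of the other 3 libraries. Zm00001d025055 held 36 H3K9ac counts in well-watered T0, 72 in stressed T0, 27 in well-watered T7 and 21 in previously stressed T7 plants. Its log2 ratios were 1.17 (95% interval 0.58 to 1.79), 1.04 (0.40 to 1.76) and 1.28 (0.59 to 2.08) against the well-watered T0, well-watered T7 and previously stressed T7 libraries. Its H3K4me3 counts were 216, 190, 132 and 175 in the order used above, 68.0 CPM in stressed T0 against 29.3 to 32.5 elsewhere. Both active marks were thus at least 2-fold higher in the stressed T0 library than in each other one. Zm00001d005609 held 99, 138, 48 and 34 H3K9ac counts, with ratios of 0.65 (0.27 to 1.04), 1.16 (0.69 to 1.67) and 1.53 (1.0 to 2.14). As for H3K4me3, its H3K9ac was lower in both T7 libraries, at 38.3 and 29.4 scaled CPM, than the 54.7 of well-watered T0.

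Other genes with a high H3K9ac score also stood highest in stressed T0, by the choice of genes. Zm00001d020332 held 59, 96, 41 and 36 H3K9ac counts and met the rule against well-watered T0 (0.87, 0.40 to 1.37) and previously stressed T7 plants (0.93, 0.38 to 1.54). Zm00001d024403 held 48, 73, 22 and 30 and met it against well-watered T7 plants (1.35, 0.67 to 2.13). Zm00001d037894, second by H3K4me3, held 17, 40, 18 and 16 and met it against well-watered T0 (1.39, 0.56 to 2.32). In each of these the stressed T0 library stood above the other 3, whose scaled levels were 31.2 to 32.7, 17.6 to 26.5 and 9.39 to 14.4 CPM. Zm00001d013337 held 21, 33, 13 and 13 counts, Zm00001d017453 held 30, 45, 21 and 20, and Zm00001d048871 held 15, 23, 11 and 10. Their ratios to well-watered T0, 0.82, 0.75 and 0.78, did not meet the rule. Of the genes that met the rule against well-watered T0, Zm00001d005804 (51, 106, 57 and 30 counts, 1.22) and Zm00001d048901 (22, 53, 38 and 37 counts, 1.43) are named after their values were seen. Zm00001d007341 held 26, 52, 22 and 25 (1.16, 0.47 to 1.91). At Zm00001d048901 both T7 libraries, at 30.3 and 32.0 scaled CPM, lay beside the 33.1 of stressed T0, with 12.2 in well-watered T0.

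**Figure D4:**
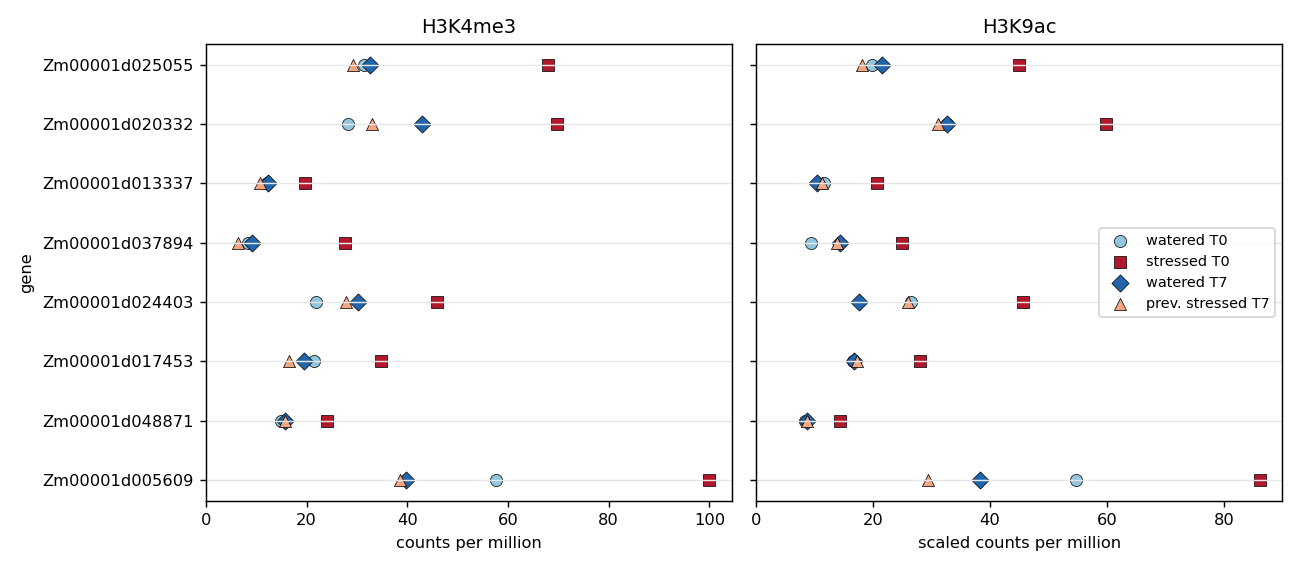
H3K4me3 (left, CPM) and H3K9ac (right, scaled CPM) in the 4 libraries for the 8 chosen genes with the highest H3K9ac score, ordered by that score. The red squares of stressed T0 plants lie to the right of the other 3 symbols in each row of both panels, which for H3K4me3 follows from the choice of genes and for H3K9ac from the choice of the 8.

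The opposite was seen as well. Zm00001d021532 held 30 H3K9ac counts in well-watered T0, 11 in stressed T0, 13 in well-watered T7 and 7 in previously stressed T7 plants, a ratio of -1.23 (-2.42 to -0.23) to well-watered T0. Zm00001d007271 held 30, 16, 26 and 18 (-0.71, -1.71 to 0.19) and Zm00001d025753 held 32, 19, 20 and 27 (-0.56, -1.48 to 0.29). None of these 3 met the rule. Their H3K4me3 scores were 0.68, 0.83 and 0.69, so the counts of both marks went opposite ways there, with wide intervals. Of the 8 highest H3K4me3 scores, Zm00001d010586, Zm00001d007411, Zm00001d042922, Zm00001d017422 and Zm00001d043180, besides Zm00001d037894, had their highest H3K9ac in stressed T0, while Zm00001d013809 (24, 21, 16 and 28 counts) and Zm00001d023664 (25, 23, 19 and 11) did not.

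One test was fitted over all 4 libraries of a mark. edgeR's quasi-likelihood test set stressed T0 against the other 3 libraries over all features, with the spread among those 3 differing groups as the error. After Benjamini-Hochberg adjustment it called none of the features tested for H3K9ac, the 149 chosen genes included, and DESeq2 called none. The same held for H3K27me3 with both tools, so the lack of calls is not particular to the chosen genes. Unadjusted p-values were under 0.05 with a higher level at 24 genes (16.1%) by edgeR, beside 1.19% of eligible genes and 1.63% of all features tested, and at 5 by DESeq2 (3.36%), beside 0.058%. With a lower level they were at 0 genes by either tool, beside 2.4% and 0.128%. Zm00001d005609 and Zm00001d025055 had the smallest values, each with an adjusted p = 0.681 by edgeR.

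The share of genes with H3K9ac highest in stressed T0 was larger at higher H3K4me3 scores, across bins of rank. Among ranks 1 to 50 by H3K4me3 score, 29 of 50 genes (58.0%) had their highest H3K9ac in stressed T0, with a median ratio to well-watered T0 of 0.47. Among ranks 51 to 100 it was 42.9% (0.18) and in the last 50 it was 42.0% (0.28). Beyond the list it was 38.9% up to rank 300, 38.8% to rank 600, 29.7% to rank 1200, 26.1% to rank 2400 and 16.3% in the rest. There was thus no step at the edge of the list. Gene by gene the relation was weak, with a Spearman correlation of the H3K4me3 and H3K9ac scores of 0.21 over the 149 genes and 0.05 over 24158 eligible genes. For H3K27me3 it was -0.24 over 121 genes and -0.04 over 21650, and the share with H3K27me3 highest in stressed T0 was 15.8%, 20.9% and 27.5% in successive bins of 50 ranks. Scores of different marks come from the same leaf groups and rest on few counts, so these correlations are a description. The part of H3K4me3 coverage, which differs between the list and the eligible genes as given above, was not tested in this gradient.

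**Figure D5:**
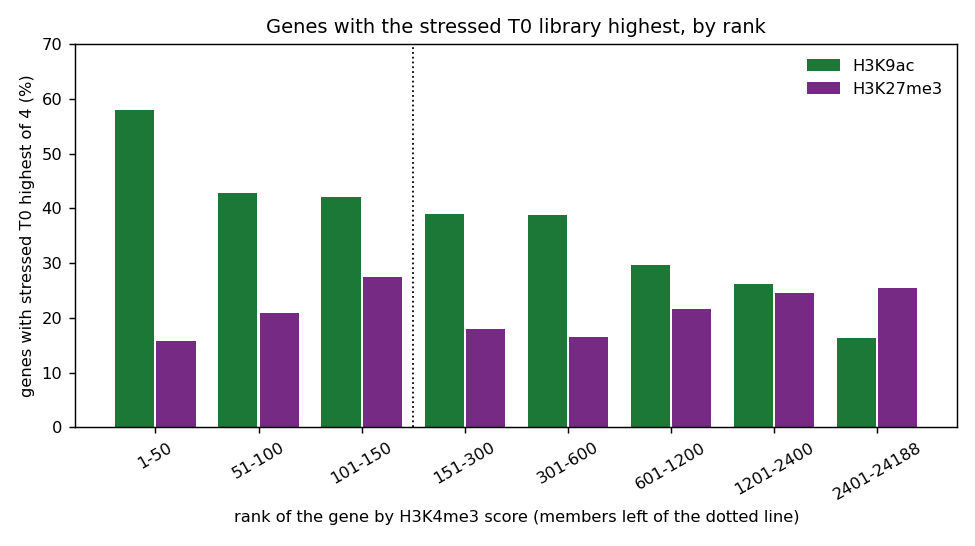
Share of genes (%) whose H3K9ac (green) or H3K27me3 (purple) was highest in stressed T0 plants, by rank of the H3K4me3 score, with the 150 chosen genes left of the dotted line. The H3K9ac bars go from 58.0% to 16.3%, and the H3K27me3 bars go from 15.8% to 27.5% within the list, stand at 18.0% and 16.5% in the next bins and reach 25.4% in the rest.

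Within the list, H3K9ac was also compared between marked and unmarked genes. The marked state uses all 4 libraries, stressed T0 included, so for H3K9ac it is not independent of the library order and its split is a description. Of the 36 H3K9ac-marked genes, 23 (63.9%) had their highest H3K9ac in stressed T0, and of 112 unmarked ones 47 (42.0%). These groups also differed in depth, with medians of 167.5 and 91.5 H3K9ac counts over 4 libraries. Of 39 H3K27me3-marked genes 11 did (28.2%, median ratio to well-watered T0 of 0.18), and of 103 without H3K27me3 56 did (54.4%, median ratio 0.36), with median H3K9ac counts of 84 and 116. Another 7 genes had no H3K27me3 enrichment value, and 4 of them (57.1%) had their highest H3K9ac in stressed T0. Neither split is given here for eligible genes, so whether the differences are particular to the chosen genes is not known. The part of depth in these differences was not tested.

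H3K27me3 stood in stressed T0 close to its level in well-watered T0 plants, on the median. Of the 150 genes, 121 had at least 40 H3K27me3 counts. Their median level was 16.1 scaled CPM in well-watered T0, 14.5 in stressed T0, 14.8 in well-watered T7 and 17.7 in previously stressed T7 plants. Over eligible genes with as many counts the medians were higher, 21.5, 21.7, 21.0 and 21.8. Between stressed and well-watered T0 plants the median H3K27me3 log2 ratio was -0.0043 (beside 0.01 over eligible genes), and 60 of 121 genes (49.6%) lay above 0 beside 50.9%. Stressed T0 was the lowest library at 29 genes (24%) beside 24% of eligible genes, and the highest at 26 (21.5%) beside 25.1%. Previously stressed T7 was the highest at 48 (39.7%) beside 25.1%, and in previously stressed over well-watered T7 plants the median was 0.18 beside 0.01, with 64.5% above 0 beside 51.1% and 0 genes higher or lower by the rule of size beside 0.374% and 0.115%. Of 120 genes measured for all marks, 57 had their highest H3K9ac in stressed T0. Of these 57, 12 had their lowest H3K27me3 there and 10 their highest, beside 29 and 26 of the 121 genes above. No such joint count is given here for eligible genes, so whether the overlap is particular to the chosen genes is not known.

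By the rule of size 0 chosen genes were higher for H3K27me3 in stressed over well-watered T0 plants and 1 was lower, beside 0.139% and 0.106% of eligible genes and 0.109% higher of all features tested. The lower one was Zm00001d025055, which also had the highest H3K9ac score. It held 146 H3K27me3 counts in well-watered T0, 78 in stressed T0, 106 in well-watered T7 and 164 in previously stressed T7 plants. The log2 ratio was -0.85 (-1.27 to -0.45) to well-watered T0, -0.59 (-1.03 to -0.16) to well-watered T7 and -0.93 (-1.34 to -0.54) to previously stressed T7. It met the rule against the well-watered T0 and the previously stressed T7 library. At this gene H3K4me3 and H3K9ac were highest, and H3K27me3 lowest, in the same stressed T0 group, and previously stressed T7 lay near well-watered T0 for each mark. It was not H3K27me3-marked by the definition used here. edgeR's quasi-likelihood test of stressed T0 against the other 3 libraries gave it an adjusted p = 0.998. The same test called 0 chosen genes for H3K27me3, with unadjusted p under 0.05 at 1 higher and 4 lower genes, beside 1.88% and 2.06% of eligible genes, and DESeq2 called 0, with 0 and 1 beside 0.0231% and 0.18%.

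Other H3K27me3 ratios rested on few counts. Zm00001d037894 held 22, 8, 17 and 18 H3K27me3 counts (ratio to well-watered T0 of -1.36, -2.79 to -0.19). Zm00001d007341 held 14, 6, 8 and 15 (-1.11, -2.84 to 0.30). Zm00001d009686 held 14, 6, 14 and 12 (-1.11, -2.84 to 0.30). These had the lowest ratios in the list. Each had its highest H3K9ac in stressed T0, as did 57 of the 120 genes measured for all marks. Of the 29 genes with their lowest H3K27me3 in stressed T0, 12 had their highest H3K9ac there, a count not given here for eligible genes. The highest ratios were those of Zm00001d013501, with 16, 28, 29 and 37 counts (0.84, -0.08 to 1.84), Zm00001d041282, with 26, 41, 21 and 28 (0.70, -0.04 to 1.47), and Zm00001d012366, with 19, 30, 22 and 36 (0.69, -0.17 to 1.62). In Zm00001d013501 and Zm00001d012366 the T7 libraries of previously stressed plants were higher still, so that stressed T0 was the highest of the 4 at Zm00001d041282 alone among these 3.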

How the data were processed

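Raw read counts per gene, not normalized, were deposited by the authors as 1 table for each mark with 4 libraries and 1 table for whole chromatin, counted both near the transcription start (1 kb) and across the gene body, per the file headers. CASAVA 1.8 and Bowtie2 on B73 RefGen_v4 are named in the submitters' processing notes. How reads were counted, in which window for each mark and with which treatment of duplicates is not given in the sources used here. From these counts, scores used library totals and a prior of 0.5 counts. Ratios of H3K9ac and H3K27me3 used TMM scaling and the same prior. Enrichment used the 1 kb counts for active marks and whole-gene counts for H3K27me3, both as an assumption, with at least 20 whole-chromatin counts. The fits used edgeR 4.0.16 and DESeq2 1.42.0 (R 4.3.3) and an adjusted p threshold of 0.05. The edgeR fit was also run on simulated counts, with 200 genes raised in stressed T0. It recovered 27.5% of 2-fold changes for H3K9ac and 44% for H3K27me3, and 99% and 99.5% of 4-fold ones. The simulated spread was set beforehand and the other 3 libraries had equal levels, unlike the real groups. The shares recovered thus need not hold for the real groups, and genes without a call can still differ by 2-fold or more. Intervals cover counting error only. With 1 library per group no pair of groups was tested, and a fit of watering with time as a term, which leaves 1 residual degree of freedom, was not run. The members and lists were chosen with earlier results of these data known. Genes were named by rule: 8 highest H3K4me3 scores, 6 most counts, 8 highest and 3 lowest H3K9ac scores, 3 highest and 3 lowest H3K27me3 ratios, 2 genes on either side of the list's edge. Alternatives were other scalings, filters, trend removal, list rules and tools.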

Additional observations from a re-analysis of the deposited data

Results flagged for a closer look

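The H3K9ac ratio of stressed over well-watered plants had opposite signs at both times in the chosen genes. Its median was 0.30 (log2) at T0 and -0.14 at T7, with 75.2% and 40.9% of 149 genes above 0. Over eligible genes the medians were -0.14 and 0.02. The difference was not tested, and each group has 1 library.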

How the results depend on the processing

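No paired analysis was possible because the groups compared share fewer than 2 replicate numbers, and a fit of watering with time as a block was not run. The list depends on its rule. Of the 150 genes, 135 remained with TMM scaling, 135 after removal of the trend on H3K4me3 enrichment, 125 where that trend used whole-gene counts and 140 with a prior of 5 counts. With a minimum of 100 counts 64 remained and with 1000 counts 6. Scored against well-watered T0 alone 43 remained, and against the mean of the other 3 libraries 99. The H3K9ac median stayed between 0.24 and 0.37 except in the list of genes with at least 1000 H3K4me3 counts, where it was -0.091 beside -0.24 over all such genes, and stressed T0 was then the highest library at 29.3% beside 11.7%. The share of genes higher for H3K9ac by the rule of size was 7.5% with at least 100 H3K9ac counts, 8% for the 75 highest scores and 18.1% with a 95% interval, and 3.33% to 6.71% otherwise. The share called for H3K27me3 was 1.43% with at least 100 counts, 0.402% for the 300 and 1.69% for the 75 highest scores, 0% with at least 1000 H3K4me3 counts and with a 2-fold minimum, and 3.31% with a 95% interval. In each of these but those at 0% and the 95% interval it stood for the same count of 1 gene. Among recomputed values of single named genes, 257 kept their call or stayed within their counting interval, 1 moved beyond it and 1 gained a call. edgeR called 0 members with TMM or RLE scaling, without the count filter and with each of the other 3 libraries left out in turn, and DESeq2, run once, called 0. The trend over whole-gene counts and the list without the 2 genes of high whole-chromatin coverage were added after the data were seen. Depth limits single genes, whose median H3K9ac count was 19 to 34 per library.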

Other observations

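MicroRNA genes were left out by the rule that chose the genes. Of the 154 counted, 28 had at least 200 H3K4me3 counts. Of these 28, 6 had their highest H3K4me3 in stressed T0 plants, beside 26.3% of eligible genes. The score of the last gene kept was reached by 0 of the 28, beside 150 of 24188 eligible genes. The highest score was 0.28 at zma-mir156k, which held 216 H3K4me3 counts in well-watered T0, 106 in stressed T0, 106 in well-watered T7 and 129 in previously stressed T7 plants. Its H3K9ac counts were 76, 45, 30 and 34, so that its H3K9ac was not highest in stressed T0 per library total.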
